A study of Rattus norvegicus with 6 samples.

Results

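The 77 cytochrome P450 rows described here are those of the 31368 in the deposited rat count table whose symbol has the form Cyp, a number, a letter code and a number. The vitamin D enzymes Cyp24a1 and Cyp27b1 were left out by the same rule. The 77 rows carry 73 symbols in 38 subfamilies, and 4 symbols stand on more than 1 row. The RNA was taken from kidneys of wild-type Sprague-Dawley rats, all male, with 3 libraries labelled CKD (chronic kidney disease) and 3 labelled Sham. The design text gives an age of 8 weeks for the rats of the CKD model. The labels say neither how the disease was induced nor whether each library is a separate animal. The p-values therefore rest on the spread among these libraries, part or all of which may be technical.

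Cytochrome P450 enzymes are heme proteins that insert an oxygen atom from molecular oxygen into a substrate, with electrons from NADPH. Those of the endoplasmic reticulum mostly take the electrons from the reductase Por, and those of mitochondria from the ferredoxin Fdx1 and its reductase Fdxr. In the kidney they sit chiefly in the proximal tubule. Enzymes of the CYP4A subfamily hydroxylate the end of fatty acid chains and turn arachidonic acid into a hydroxylated product that constricts vessels, while CYP2C enzymes turn it into epoxides that act on vessels and on sodium transport. Other families handle drugs, sterols, bile acids, steroid hormones and retinoic acid.

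Assigned counts ran from 17240755 to 17503644 in the CKD libraries and from 15918035 to 17409090 in the Sham libraries. Levels are given as CPM, the usual depth-scaled count, with library sizes after TMM scaling. That scaling aims to set aside differences in overall composition and assumes that most genes do not differ. Its factors were 1.188, 1.151 and 1.134 in CKD 1, 2 and 3 and 0.862, 0.837 and 0.893 in Sham 1, 2 and 3. The factors thus differed between the groups, and levels and fold changes depend on them. The Sham libraries were less alike than the CKD libraries. Mitochondrial genes took 8.83% to 10.8% of counts in CKD libraries, against 14.4% in Sham 1, 15.3% in Sham 3 and 37.9% in Sham 2 (exact binomial 95% interval 37.88% to 37.93%). All 10 proximal tubule marker genes were expressed, with summed levels of 9980 to 14034 CPM in CKD libraries and of 6200, 20164 and 20436 CPM in Sham 2, Sham 3 and Sham 1. Slc7a13 alone gave 6766 CPM of the sum in Sham 1, against 409 CPM in Sham 3, so these 2 sums differ in make-up. The tissue label is thus met by its markers, and Sham 2 had the lowest summed tubule level of all 6 libraries. In bulk tissue, fewer cells of a type and less RNA per cell cannot be told apart.

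The summed P450 level was 3772, 5606 and 6014 CPM in CKD 1, 2 and 3, against 11253, 4375 and 11034 CPM in Sham 1, 2 and 3. Sham 1 and Sham 3 stood about alike and above every other library. On this scale Sham 2 lay within the range of the CKD libraries, so the groups overlapped. As a plain share of assigned counts, P450 rows took 0.448% to 0.681% in CKD libraries. They took 0.969%, 0.366% and 0.985% in Sham 1, 2 and 3, so Sham 2 was then the lowest library. Of the 6 libraries, Sham 2 also had the most mitochondrial counts and the least proximal tubule marker RNA, and the part of either in its P450 level was not tested. The 5 most abundant members made up 83.3% of the summed level over the libraries. Per kilobase of gene length the highest were Cyp2c23 (671 CPM per kb in CKD and 772 in Sham) and Cyp4a3 (448 CPM per kb in CKD and 989 in Sham).

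**Figure D1:**
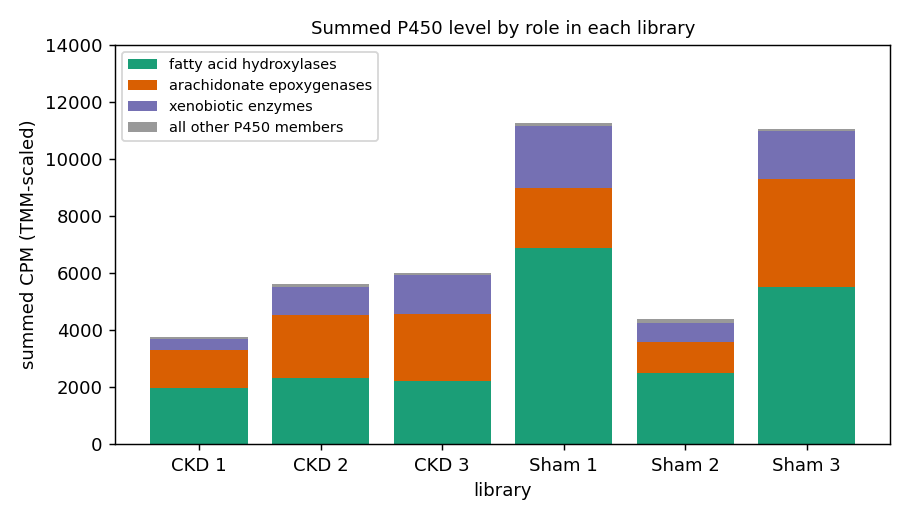
Bars give the summed TMM-scaled CPM (y axis) of P450 members in each of the 6 libraries (x axis), stacked by role. The CKD libraries lie at 3772 to 6014 CPM, with Sham 2 among them at 4375 CPM, while Sham 1 and Sham 3 reach 11253 and 11034 CPM.

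In the comparison of CKD with Sham, 36 of the 77 rows had enough counts to be tested, 18 had between 2 and 169 counts in all and were not tested, and 23 had 0 counts in every library. By edgeR's quasi-likelihood test, adjusted over all 15371 genes tested, Cyp2c11 was the only member called; it was lower in CKD. Of all genes tested 3.82% were called, 2.67% higher and 1.15% lower. The count of members called higher in edgeR was 0. At an unadjusted p under 0.05, edgeR had 11 of 36 members beside 23.8% of all genes, 3 higher beside 13.5% and 8 lower beside 10.3%. DESeq2 called 2 members higher beside 8.97% of all genes and 7 lower beside 7.27%, and limma-voom called 0. The CKD libraries lay wholly below the Sham libraries in 7 tested members (19.4%), beside 12.4% of all genes, and wholly above them in 3 (8.33%), beside 18.8% of all genes. The 7, like the 8 above and the 7 lower in DESeq2, include Cyp4f37. It passed the filter on low counts only through the Sham libraries and so had to differ. Cyp2c11 and Cyp2c24 had all 3 Sham libraries above the filter's cutoff, but only 1 and 2 CKD libraries. Their CKD libraries alone would not have passed it. In Cyp1b1, among the 3 higher, all 3 CKD libraries but only 2 Sham libraries were above the cutoff. The tests of these genes are thus not free of that selection. The fitted log2 fold change was negative in 23 members and positive in 13, with a median of -0.39 beside -0.01 over all genes. With library totals alone for scaling, the median over members was 0.02 and that over all genes 0.41, so directions near 0 depend on the scaling.

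**Figure D2:**
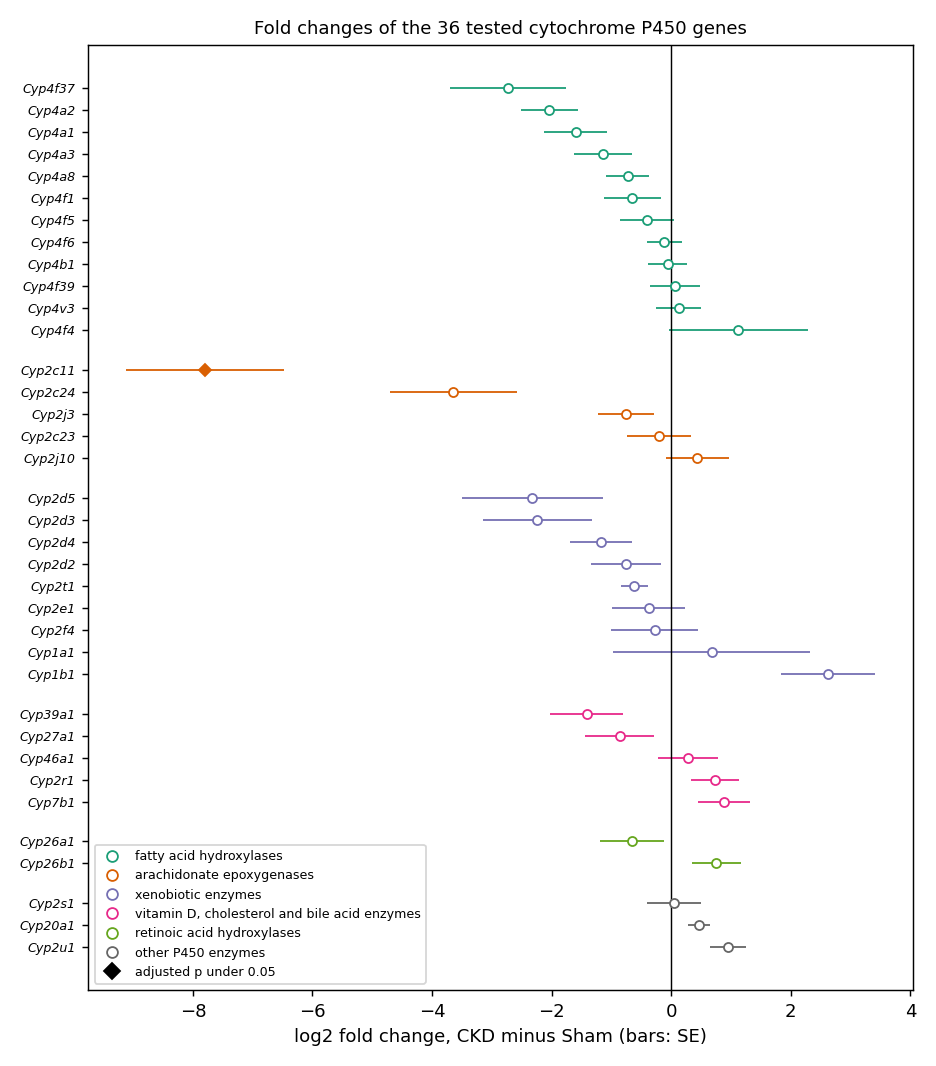
Points give the log2 fold change (x axis, CKD minus Sham) of the 36 tested P450 genes (y axis), grouped by role, with bars of 1 SE; open circles did not pass the test and the filled diamond did. Cyp2c11 at -7.80 is the filled one, and the Cyp4a and Cyp2d genes all lie left of 0.

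The CYP4A fatty acid hydroxylases were the subfamily with the highest summed level in CKD 1 and in all 3 Sham libraries, and each of the 4 genes averaged lower in CKD without passing the test. Cyp4a2, which encodes an arachidonate hydroxylase of rat kidney, had 333, 237 and 347 CPM in CKD 1, 2 and 3, against 1867, 558 and 1341 CPM in Sham 1, 2 and 3. All 3 CKD libraries were below all 3 Sham libraries, with a log2 fold change of -2.04 ± 0.48 (SE), which did not pass (edgeR adjusted p = 0.0599); DESeq2 called it, with Cyp4a1 and Cyp4a3, and edgeR did with no filter on low counts. Cyp4a3, the most abundant CYP4A gene, had 881, 1310 and 1067 CPM in CKD 1, 2 and 3 and 3280, 1087 and 2815 CPM in Sham 1, 2 and 3. CKD 2 and CKD 3 lay at about the level of Sham 2, so the groups overlapped (log2 fold change -1.14 ± 0.48, edgeR adjusted p = 0.206). Cyp4a1, known as a target of the fatty acid receptor PPAR-alpha in rat liver, had 57.0, 62.2 and 76.6 CPM in CKD 1, 2 and 3 and 131, 85.4 and 376 CPM in Sham 1, 2 and 3. The groups did not overlap, but Sham 3 alone stood far above the rest, and the log2 fold change of -1.60 ± 0.52 (edgeR adjusted p = 0.121) was -0.79 without Sham 3. Cyp4a8 averaged 435 ± 55.2 CPM in CKD and 722 ± 289 CPM in Sham (SD, n = 3 each), again without overlap (log2 fold change -0.73, edgeR adjusted p = 0.256).

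Summed over the 4 Cyp4a rows, the level was 1769, 2026 and 1882 CPM in CKD 1, 2 and 3, against 6332, 2259 and 5116 CPM in Sham 1, 2 and 3. The CKD libraries stayed close together (SD 129 CPM around a mean of 1892 CPM), while the Sham libraries spread widely (SD 2091 CPM around a mean of 4569 CPM). All 4 genes had a negative log2 fold change under every scaling and with every library left out.

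Cyp4a2 and Cyp4a3 are paralogs of 1 subfamily, and their promoters are printed for their likeness. Whether reads of their transcripts can be told apart was not tested, and promoter likeness does not show it. Of 300 promoter bases 284, or 94.7%, were identical in an alignment of this pair, against 58.0% and 57.7% of each with that of Cyp4a8. The sequences below are from RefSeq, build GRCr8, written 5′ to 3′ in the direction of the gene from 250 bases before to 50 after its start, and capitals mark the 16 bases of each with no identical partner in the other.
Cyp4a2 (chr5:134170859-134171158, minus strand): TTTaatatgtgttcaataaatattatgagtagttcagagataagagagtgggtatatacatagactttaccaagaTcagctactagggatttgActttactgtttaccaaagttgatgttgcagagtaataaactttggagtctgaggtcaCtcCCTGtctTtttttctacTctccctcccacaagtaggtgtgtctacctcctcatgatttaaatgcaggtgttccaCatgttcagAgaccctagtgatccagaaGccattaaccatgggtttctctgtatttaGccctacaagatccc
Cyp4a3 (chr5:134352187-134352486, minus strand): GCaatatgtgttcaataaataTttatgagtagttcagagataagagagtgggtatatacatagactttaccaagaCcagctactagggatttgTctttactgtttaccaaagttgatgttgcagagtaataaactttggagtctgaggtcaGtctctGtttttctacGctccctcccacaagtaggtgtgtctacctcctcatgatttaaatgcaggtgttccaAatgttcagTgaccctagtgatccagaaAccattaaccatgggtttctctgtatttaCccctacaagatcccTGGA

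In the coordinates of the deposited table, whose build is uncertain, Cyp4a2 lies on chromosome 5 from 128923615 to 129026477 and overlaps another row, LOC120102953, on the same strand over 10551 bases. That row is described in the table as matching the CYP4A2 protein and is outside the rule used here. It had 38.0, 21.9 and 32.4 CPM in CKD 1, 2 and 3, against 291, 59.5 and 217 CPM in Sham 1, 2 and 3, and was called lower (log2 fold change -2.62 ± 0.56, edgeR adjusted p = 0.0486). Of the 6 libraries, leaving out any but Sham 1 ended this call, as did limma-voom and a replicate block (adjusted p from 0.0538 to 0.2005). Added together, Cyp4a2 and LOC120102953 had 371, 259 and 379 CPM in CKD 1, 2 and 3 and 2157, 618 and 1558 CPM in Sham 1, 2 and 3. For this sum, too, all CKD libraries were below all Sham libraries.

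Of the 8 Cyp4f rows, whose enzymes inactivate leukotriene B4 among other lipids, 6 were tested. Cyp4f1 was the most abundant, with 125, 174 and 245 CPM in CKD 1, 2 and 3 and 428, 118 and 310 CPM in Sham 1, 2 and 3. The lowest library was Sham 2, and the groups overlapped (log2 fold change -0.65, edgeR adjusted p = 0.449). Cyp4f6 averaged 39.8 ± 14.1 CPM in CKD and 43.1 ± 4.54 CPM in Sham (SD, n = 3 each), a difference smaller than the spread. Cyp4f37 was scarce, with 10, 0 and 3 counts in CKD 1, 2 and 3 against 13, 31 and 19 counts in Sham 1, 2 and 3. Its log2 fold change of -2.73 ± 0.96 did not pass in edgeR (adjusted p = 0.142) and did in DESeq2 (adjusted p = 0.0423). Because Cyp4f37 passed the filter on low counts only through the Sham libraries, neither test is free of that selection. Cyp4v3, a relative of the human enzyme altered in a crystalline retinal dystrophy, averaged 32.4 ± 7.16 CPM in CKD and 29.8 ± 15.1 CPM in Sham (SD, n = 3 each). The other 4 tested members of family 4, Cyp4b1, Cyp4f4, Cyp4f5 and Cyp4f39, had log2 fold changes from -0.40 to 1.124 and edgeR adjusted p from 0.60 to 0.94.

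**Figure D3:**
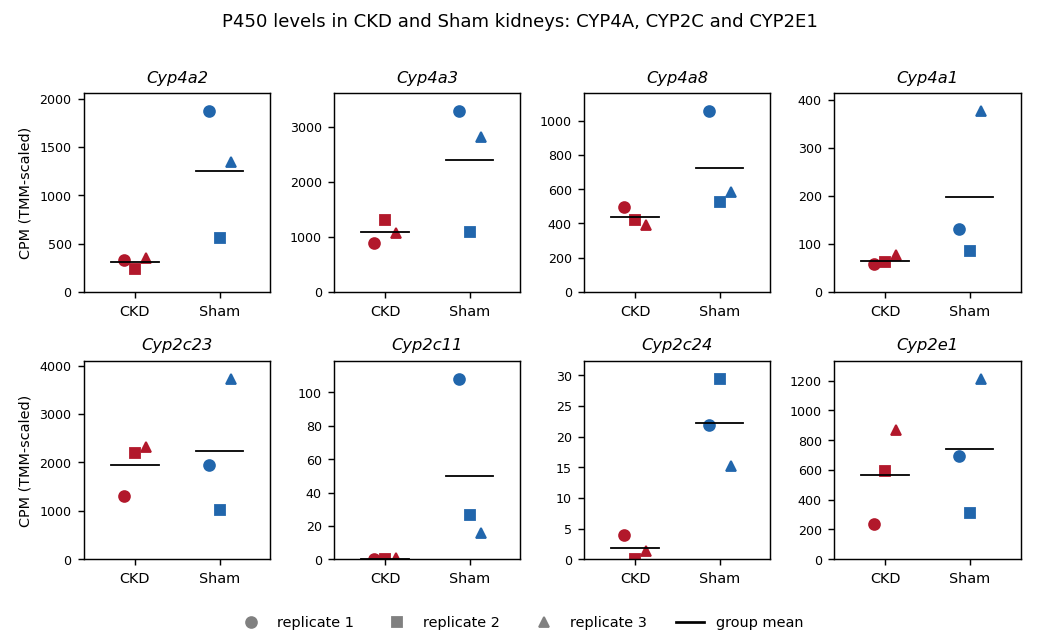
Each panel gives the TMM-scaled CPM (y axis, from 0) of 1 gene in the 3 CKD and 3 Sham libraries (x axis), with a marker shape for each replicate number and a line at the group mean. Cyp4a2 lies at 237 to 347 CPM in CKD and 558 to 1867 CPM in Sham, and Cyp2c11 is at or near 0 in CKD, while Cyp2c23 and Cyp2e1 overlap between groups.

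Among the epoxygenases, the dominant Cyp2c23 did not separate the groups while the scarcer Cyp2c11 and Cyp2c24 did. Cyp2c23, the main arachidonate epoxygenase of rat kidney, had 1315, 2193 and 2314 CPM in CKD 1, 2 and 3, against 1951, 1024 and 3725 CPM in Sham 1, 2 and 3. Both the highest and the lowest library were Sham, and the log2 fold change of -0.20 ± 0.54 (edgeR adjusted p = 0.852) was 0.33 without Sham 3, 0.02 without CKD 1 and 0.19 with library totals alone.

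Cyp2c11, best known as the male-specific P450 of rat liver that hydroxylates testosterone and epoxidises arachidonic acid, had 0, 0 and 13 counts in CKD 1, 2 and 3. In Sham 1, 2 and 3 it had 1622, 377 and 225 counts, or 108, 26.3 and 15.8 CPM. It fell in CKD, with a fitted log2 fold change of -7.80 ± 1.32 that rests on the 13 counts of CKD 3 (edgeR adjusted p = 0.0367). Cyp2c11 passed the filter on low counts through the Sham libraries, with only 1 CKD library above the cutoff. Its test is therefore not free of that selection. With no filter edgeR gave it an adjusted p of 0.0435. A count of 0 was taken to allow at most 3 counts per library, for counting error alone. On that limit, the level in CKD 1 and CKD 2 was at least 336-fold lower than the Sham mean of 50.1 CPM. It was at least 106-fold lower than Sham 3, the lowest Sham library. The call was lost without CKD 1, CKD 2, Sham 2 or Sham 3, in limma-voom and with a replicate block (adjusted p from 0.0591 to 0.168). Cyp2c24 had 3.91, 0 and 1.38 CPM in CKD 1, 2 and 3, against 21.9, 29.4 and 15.2 CPM in Sham 1, 2 and 3. Here too the groups did not overlap, but the difference (log2 fold change -3.64 ± 1.06) did not pass (edgeR adjusted p = 0.0919).

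Cyp2c11 (chromosome 1, 236762842 to 236799066) and Cyp2c24 (chromosome 1, 236873967 to 236936238) neighbour each other in the deposited coordinates and are members of a cluster of relatives. Their promoters are shown because both genes were low in every CKD library; 71.0% of the 300 bases were identical between them, against 50.7% and 52.3% with Cyp2c23. Both hold the motif TATAAA (capitals), which was found on either strand in 14.2% of all 33469 promoters of the same length and in 6 of the 31 tested members with a promoter. The sequences are from RefSeq, build GRCr8, 5′ to 3′ in the direction of the gene.
Cyp2c11 (chr1:246174966-246175265, plus strand): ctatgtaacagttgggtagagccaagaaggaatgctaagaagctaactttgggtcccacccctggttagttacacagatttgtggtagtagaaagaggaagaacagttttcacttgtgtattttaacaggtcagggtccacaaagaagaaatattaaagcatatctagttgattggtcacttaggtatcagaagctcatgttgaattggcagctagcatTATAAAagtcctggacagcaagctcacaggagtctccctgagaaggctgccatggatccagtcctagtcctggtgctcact
Cyp2c24 (chr1:246286091-246286390, plus strand): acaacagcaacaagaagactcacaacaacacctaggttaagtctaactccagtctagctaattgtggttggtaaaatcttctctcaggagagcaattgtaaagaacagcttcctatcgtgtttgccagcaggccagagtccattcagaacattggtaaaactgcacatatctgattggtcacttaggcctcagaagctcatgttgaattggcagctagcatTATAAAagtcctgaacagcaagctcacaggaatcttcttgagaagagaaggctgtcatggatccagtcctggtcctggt

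Other members of the Cyp2c cluster were barely detected. Cyp2c22 had 0, 5 and 0 counts in CKD 1, 2 and 3 and 9, 21 and 29 counts in Sham 1, 2 and 3, too few to be tested. The liver forms Cyp2c7, Cyp2c12, Cyp2c13 and Cyp2c6v1 had 0 counts in all 6 libraries. For counting error alone, this allows at most 0.145 to 0.154 CPM in a CKD library and 0.20 to 0.211 CPM in a Sham library. Whether reads shared with close relatives were left out of the counts was not tested, so a 0 does not show that the RNA was absent. Of the epoxygenase subfamily Cyp2j, Cyp2j3 averaged 12.1 ± 2.06 CPM in CKD and 20.4 ± 14.1 CPM in Sham (SD, n = 3 each), and Cyp2j10 averaged 1.59 ± 0.450 CPM in CKD and 1.18 ± 0.615 CPM in Sham, both differences within the spread.

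The drug-metabolising Cyp2d genes, a cluster on chromosome 7, varied widely within both groups. Cyp2d5 had 5.40, 30.5 and 91.5 CPM in CKD 1, 2 and 3, against 517, 79.1 and 40.2 CPM in Sham 1, 2 and 3. Cyp2d3 had 8.25, 26.4 and 53.1 CPM in CKD 1, 2 and 3, against 299.99, 82.2 and 31.7 CPM in Sham 1, 2 and 3. In both genes Sham 1 was far above the other libraries and CKD 1 far below, while Sham 2, Sham 3 and CKD 3 overlapped. The log2 fold change of Cyp2d5 was -2.32 ± 1.18 (edgeR adjusted p = 0.276) and -0.53 without Sham 1, and that of Cyp2d3 was -2.24 ± 0.91 (edgeR adjusted p = 0.188) and -1.01 without Sham 1; DESeq2 called Cyp2d3 (adjusted p = 0.0364). Cyp2d2, the most abundant of the cluster, had 80.9, 223 and 289 CPM in CKD 1, 2 and 3 and 533, 142 and 323 CPM in Sham 1, 2 and 3, and Cyp2d4 averaged 18.8 ± 9.29 CPM in CKD and 42.4 ± 24.6 CPM in Sham (SD, n = 3 each; edgeR adjusted p = 0.474 and 0.217).

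Slc7a13, an amino acid transporter of the last, straight part of the proximal tubule, went through the libraries in the same order as Cyp2d3. It is 1 of the 10 proximal tubule markers, singled out after its values were seen, and the other 9 did not follow this order: Sham 3 was highest in all of them but Aqp1, and 5 had a positive log2 fold change. Slc7a13 had 8.83, 50.2 and 618 CPM in CKD 1, 2 and 3, against 6766, 681 and 409 CPM in Sham 1, 2 and 3. Its highest library was 766 times its lowest, against 36.4 times for Cyp2d3 and 95.8 times for Cyp2d5. The part of that tubule segment's share of each sample in the Cyp2d levels was not tested. Cyp39a1, a sterol hydroxylase, went through the libraries in this order too, with 1.16, 2.68 and 3.89 CPM in CKD 1, 2 and 3 and 11.8, 5.45 and 3.38 CPM in Sham 1, 2 and 3.

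**Figure D4:**
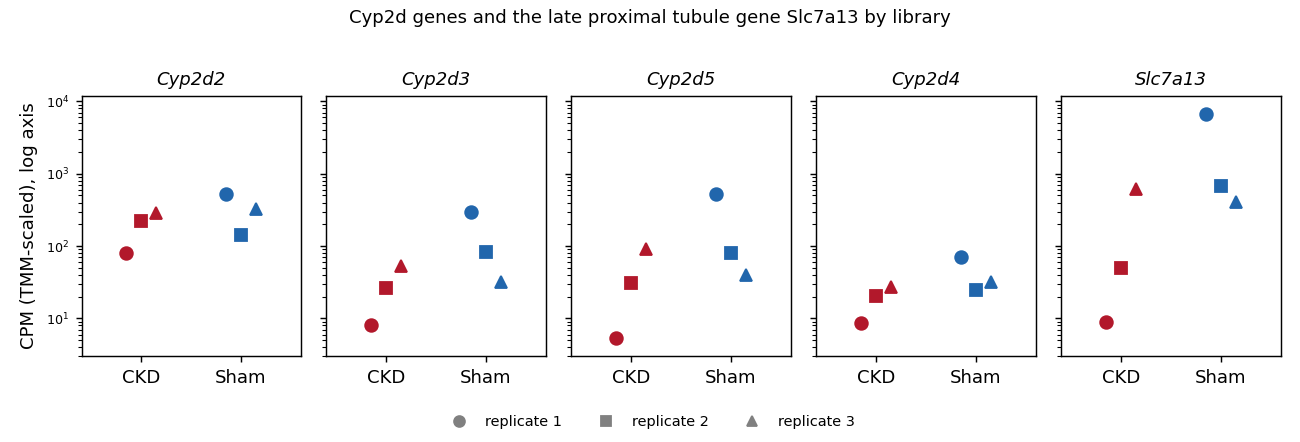
Each panel gives the TMM-scaled CPM (y axis, log scale, shared) of 1 gene in the 3 CKD and 3 Sham libraries (x axis), with a marker shape for each replicate number. In all 5 panels CKD 1 is lowest and Sham 1 highest, at 5.40 CPM in CKD 1 and 517 CPM in Sham 1 for Cyp2d5 and at 8.83 CPM in CKD 1 and 6766 CPM in Sham 1 for Slc7a13.

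Cyp2d3 and Cyp2d5 stand out among the Cyp2d paralogs by their promoters, which are printed for their likeness: they were identical at 251 of 300 bases (83.7%), against 47.3% to 57.0% for the other pairs of this cluster. Capitals mark TATAAA, found here on the opposite strand as TTTATA (RefSeq, build GRCr8, 5′ to 3′ in the direction of the gene).
Cyp2d3 (chr7:115802093-115802392, minus strand): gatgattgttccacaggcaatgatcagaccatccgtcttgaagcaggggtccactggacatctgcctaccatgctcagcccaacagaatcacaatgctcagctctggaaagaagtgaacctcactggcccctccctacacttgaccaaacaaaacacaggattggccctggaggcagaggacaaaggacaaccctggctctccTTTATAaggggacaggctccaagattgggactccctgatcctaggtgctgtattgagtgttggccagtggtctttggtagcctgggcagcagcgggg
Cyp2d5 (chr7:115784438-115784737, minus strand): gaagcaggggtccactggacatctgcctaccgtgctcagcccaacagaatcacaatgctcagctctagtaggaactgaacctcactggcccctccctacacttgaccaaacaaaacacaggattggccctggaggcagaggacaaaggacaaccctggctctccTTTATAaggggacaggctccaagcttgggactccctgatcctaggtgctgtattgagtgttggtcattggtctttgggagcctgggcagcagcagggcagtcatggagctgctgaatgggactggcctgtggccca

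Of the other enzymes that act on foreign compounds, Cyp2e1, which oxidises ethanol and small solvents, was the most abundant. It had 239, 595 and 869 CPM in CKD 1, 2 and 3, against 692, 312 and 1211 CPM in Sham 1, 2 and 3. The groups overlapped, and the log2 fold change of -0.38 ± 0.61 (edgeR adjusted p = 0.749) was 0.13 without Sham 3 and 0.01 with library totals alone. Cyp2t1 was steadier, at 11.9, 16.2 and 12.2 CPM in CKD 1, 2 and 3 and 19.7, 21.03 and 21.3 CPM in Sham 1, 2 and 3, without overlap and without passing (log2 fold change -0.62 ± 0.23, edgeR adjusted p = 0.153; DESeq2 adjusted p = 0.0435).

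The dioxin-inducible CYP1 genes did not behave alike. Cyp1b1, which oxidises polycyclic hydrocarbons and estradiol, had 13.3, 5.12 and 2.05 CPM in CKD 1, 2 and 3, against 1.40, 0.419 and 1.48 CPM in Sham 1, 2 and 3. All CKD libraries were above all Sham libraries, CKD 1 most of all. The log2 fold change of 2.63 ± 0.79 (edgeR adjusted p = 0.0971) was 1.70 without CKD 1. DESeq2 called Cyp1b1. So did edgeR with library totals alone, where the median log2 fold change over all genes was 0.41. Cyp1a1, the enzyme most strongly induced through the aryl hydrocarbon receptor, had 0, 1071 and 132 counts in CKD 1, 2 and 3 and 483, 48 and 28 counts in Sham 1, 2 and 3, so CKD held both its highest and its lowest library. Cyp1a2 had 0 counts throughout. Cyp1b1 is also known from fibroblasts, and the 5 fibroblast markers summed to 616 to 1084 CPM in CKD and 56.0 to 347 CPM in Sham (Col1a1 called higher, a call lost with RLE size factors and without any library but Sham 1); their part in the Cyp1b1 level was not tested.

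The promoter of Cyp1b1 is shown because this gene had the largest positive log2 fold change of the tested members. It holds GCGTG, the core motif of the aryl hydrocarbon receptor, at 2 places, marked in capitals, once as its reverse complement CACGC. That motif was found in 29.7% of all promoters and in 13 of the 31 tested members with one. The sequence is from RefSeq, build GRCr8, 5′ to 3′ in the direction of the gene.
Cyp1b1 (chr6:21094315-21094614, plus strand): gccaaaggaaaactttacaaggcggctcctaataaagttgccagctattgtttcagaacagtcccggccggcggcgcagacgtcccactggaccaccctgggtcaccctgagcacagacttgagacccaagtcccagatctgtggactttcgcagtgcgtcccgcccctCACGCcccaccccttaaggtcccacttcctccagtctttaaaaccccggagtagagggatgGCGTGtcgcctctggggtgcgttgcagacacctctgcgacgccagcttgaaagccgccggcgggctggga

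Enzymes of vitamin D, cholesterol and bile acid metabolism were expressed at low levels, and the 5 tested ones overlapped between groups. Cyp27a1, the mitochondrial sterol hydroxylase, had 12.8, 19.2 and 12.7 CPM in CKD 1, 2 and 3, against 8.94, 52.4 and 19.99 CPM in Sham 1, 2 and 3. Its log2 fold change of -0.87 ± 0.58 (edgeR adjusted p = 0.403) was 0.01 without Sham 2, its highest library. Cyp2r1, the vitamin D 25-hydroxylase of liver, averaged 10.5 ± 2.29 CPM in CKD and 6.34 ± 3.07 CPM in Sham, and Cyp7b1, which hydroxylates oxysterols, averaged 7.92 ± 2.49 CPM in CKD and 4.28 ± 1.98 CPM in Sham (SD, n = 3 each; edgeR adjusted p = 0.313 and 0.262). Cyp2r1 overlaps Pde3b on the opposite strand, and without a known strand setting their reads cannot be told apart. Cyp8b1, a bile acid enzyme, had 0, 2 and 6 counts in CKD 1, 2 and 3 and 138, 16 and 7 counts in Sham 1, 2 and 3 and was not tested. Cyp7a1, which starts bile acid synthesis in liver, had 0 counts in all libraries.

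Of the retinoic acid hydroxylases, Cyp26b1 had 6.22, 5.61 and 3.07 CPM in CKD 1, 2 and 3, against 2.60, 3.63 and 2.60 CPM in Sham 1, 2 and 3. CKD 3 lay below Sham 2, and the log2 fold change was 0.75 ± 0.41 (edgeR adjusted p = 0.303). Cyp26a1 averaged 0.894 ± 0.175 CPM in CKD and 1.41 ± 0.746 CPM in Sham (SD, n = 3 each), within the spread. None of the 6 rows of steroid hormone enzymes was tested. Over all libraries Cyp11a1, which starts steroid synthesis, had 25 counts, Cyp17a1 50, Cyp21a1 56 and aromatase (Cyp19a1) 14. Adrenal cortex markers summed to 3.96 to 9.53 CPM in CKD and 18.4 to 47.5 CPM in Sham, with Mrap called lower (a call lost without any 1 of the 6 libraries) and the defining genes Nr5a1 and Mc2r at 0 to 0.41 CPM, and their part in these counts was not tested.

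A few members with steady low levels were higher in each CKD library than in any Sham library. Cyp20a1, an enzyme whose substrate is not well defined, had 30.7, 28.5 and 28.8 CPM in CKD 1, 2 and 3, against 22.5, 20.8 and 20.6 CPM in Sham 1, 2 and 3. Cyp2u1, a fatty acid hydroxylase, had 8.78, 9.19 and 9.27 CPM in CKD 1, 2 and 3, against 6.07, 3.84 and 4.15 CPM in Sham 1, 2 and 3. Neither passed (log2 fold change 0.46 ± 0.19 and 0.95 ± 0.30, edgeR adjusted p = 0.182 and 0.113). Cyp2u1 did without Sham 1 and in DESeq2. Both did with library totals alone, where the median log2 fold change over all genes was 0.41 and 91.9% of calls were higher. Cyp2s1 averaged 16.02 ± 5.20 CPM in CKD and 15.6 ± 8.57 CPM in Sham (SD, n = 3 each).

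The Cyp3a and Cyp2b subfamilies, which metabolise drugs in rat liver, had few or no counts in these libraries. Of 8 Cyp3a rows, 4 had any counts and none was tested. Of those 8, 5 overlap one another on chromosome 12, and reads there cannot be told apart by position. A count of 0 in those rows therefore does not show that the RNA was absent. Cyp3a9 had 12, 7 and 10 counts in CKD 1, 2 and 3 and 1 count in each Sham library, a ratio of summed levels of 6.97 with an exact 95% interval of 2.16 to 35.7 that covers counting error only. Cyp4x1 had 19, 14 and 6 counts in CKD 1, 2 and 3 and 0, 2 and 4 counts in Sham 1, 2 and 3; these genes were named after their values were seen. Of 6 Cyp2b rows, 5 had 0 counts in every library, and Cyp2b2 had 0 counts in CKD and 6 in Sham. Whether reads shared among the Cyp2b relatives were left out of the counts was not tested. Of the hepatocyte markers, Alb stood at 0.102 to 0.193 CPM in CKD and at 0 to 0.422 CPM in Sham and Ttr at 0 throughout, while fibrinogen (Fgb) had 10.4 to 48.5 CPM in CKD and 1.118 to 3.52 CPM in Sham and was called higher (edgeR adjusted p = 0.0415), a call lost without any library but CKD 3.

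Genes that work with P450 enzymes were read from 4 lists. Of 40 listed rows 38 were tested, 1 was called higher and 1 lower, both regulators. The share called was 5.26%, beside 3.82% of all genes tested. Cebpb, a transcription factor of the acute phase that lowers or raises P450 genes in liver, fell in CKD, with 56.2, 69.9 and 46.2 CPM in CKD 1, 2 and 3 against 285, 263 and 286 CPM in Sham 1, 2 and 3 (log2 fold change -2.28 ± 0.24, edgeR adjusted p = 0.0278). Ahr, the aryl hydrocarbon receptor, rose, with 32.0, 29.6 and 28.1 CPM in CKD 1, 2 and 3 against 14.2, 13.9 and 15.4 CPM in Sham 1, 2 and 3 (log2 fold change 1.04 ± 0.20, edgeR adjusted p = 0.040). Both groups of libraries were tight in these genes, yet both calls were lost without CKD 1, CKD 2, Sham 2 or Sham 3 and with a replicate block (adjusted p = 0.0528 for Cebpb and 0.112 for Ahr), and that of Ahr also without CKD 3 and in limma-voom. The repressor of that receptor, Ahrr, had 2.22, 1.14 and 0.973 CPM in CKD 1, 2 and 3 and 0, 0.419 and 0.633 CPM in Sham 1, 2 and 3 (edgeR adjusted p = 0.230).

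Por, the reductase of microsomal P450 enzymes, had 134, 149 and 174 CPM in CKD 1, 2 and 3, against 284, 347 and 492 CPM in Sham 1, 2 and 3. Each CKD library was below each Sham library, Sham 2 included, and the log2 fold change of -1.30 ± 0.29 lay just outside the threshold (edgeR adjusted p = 0.0523). It was called with RLE size factors, with no filter, in a fit that is not robust, with mitochondrial genes removed, in DESeq2 and without Sham 1. Fdx1, the mitochondrial electron carrier, had 33.4, 37.0 and 39.4 CPM in CKD 1, 2 and 3, against 59.7, 40.0 and 59.9 CPM in Sham 1, 2 and 3 (edgeR adjusted p = 0.192). In the 8 heme synthesis genes the median log2 fold change was 0.00 and the smallest edgeR adjusted p was 0.225, that of Alas1, the first enzyme of the pathway, which averaged lower in CKD (log2 fold change -0.67 ± 0.30). Cpox, a later enzyme of that pathway, averaged 24.1 ± 2.78 CPM in CKD and 19.5 ± 2.19 CPM in Sham (SD, n = 3 each; edgeR adjusted p = 0.415). Of the epoxide hydrolases, which break down the products of epoxygenases, Ephx1 averaged 216 CPM in CKD and 399.8 CPM in Sham (log2 fold change -0.89 ± 0.38, edgeR adjusted p = 0.203). Ephx4 had 0.434, 0.497 and 0.717 CPM in CKD 1, 2 and 3 and 0.40, 2.515 and 1.41 CPM in Sham 1, 2 and 3 (edgeR adjusted p = 0.277). Ephx2 had 105, 141 and 117 CPM in CKD 1, 2 and 3 and 7.47, 46.9 and 186 CPM in Sham 1, 2 and 3.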

How the data were processed

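RNA-seq of renal tissue was analysed from 3 CKD and 3 Sham libraries made with TRIzol extraction and a VAHTS Universal V5 kit, per the labels' protocols. The deposited values are raw counts per gene. The submitters' processing notes name fastp 0.20.1, HISAT2 2.1.0, HTSeq 0.11.2 and the build Rnor_6.0. No source used here gives the strand setting, and whether the coordinates in the table are of that build could not be settled. The other deposited column is the gene length in bases.

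Counts were fitted with edgeR 4.0.16 in R 4.3.3 (quasi-likelihood test, robust, TMM scaling, filterByExpr with a minimum count of 10 and a minimum total of 15), with group as the only term and Benjamini-Hochberg adjustment over 15371 genes at 0.05. The fit's biological coefficient of variation was 37.5%. SE is the log2 fold change divided by the square root of F. The step was tested on simulated counts with the same spread per gene in both groups. The wider spread of the Sham libraries was not simulated. Alternatives were other scalings and filters, DESeq2 1.42.0, limma-voom (limma 3.58.1), a replicate block and leaving out each library. An exact permutation test of 3 against 3 libraries cannot go below p = 0.1, so none was used. Intervals and count limits cover counting error only. The deviations of libraries of the same number had r of -0.206, 0.00452 and -0.157, and numbers were not taken as pairs in the main fit. Whether they mark pairs was not tested.

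The members and lists were chosen with earlier results of these data known. Members described in full were those past the threshold, the 12 most abundant, the 8 with the largest change among those without overlap, and the most abundant of each role. Of the lists, the genes past the threshold and the 2 with the smallest p in each were described. Others named, such as Cyp2t1, Cyp1a1, Cyp8b1, Cyp39a1, Ephx2 and Ahrr, were named after their values were seen. Promoters came from a RefSeq table of build GRCr8, which held 31 of the 36 tested members.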

Additional observations from a re-analysis of the deposited data

How the results depend on the processing

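Of all genes, 411 were called higher and 176 lower in CKD. The higher count was 2047 with library totals alone, 1379 in DESeq2, 120 in limma-voom, 0 at a threshold of 0.01 and 1162 at 0.10; the lower count was 1118 in DESeq2, 75 in limma-voom, 0 at 0.01 and 631 at 0.10. Leaving out 1 library gave 0 to 789 higher (0 without CKD 1, CKD 2 or Sham 2, 1 without Sham 3, 789 without Sham 1) and 0 to 922 lower (0 without CKD 1 or CKD 2, 73 without CKD 3, 922 without Sham 1, 2 without Sham 2, 6 without Sham 3). Calls were 70% higher, against 91.9% with library totals alone, 55.2% in DESeq2 and 46.1% without Sham 1. Of the P450 members, 0 were higher (3 with library totals alone, 2 in DESeq2, 1 at 0.10, and 0 to 1 leaving out 1 library) and 1 lower (2 with no filter, 7 in DESeq2, 0 in limma-voom, 0 at 0.01, 3 at 0.10, and 0 to 1 leaving out 1 library). Their median log2 fold change of -0.39 was 0.0196 with library totals alone and -0.69 to -0.26 leaving out 1 library. Of the pathway genes, 1 was higher (2 with library totals alone, 0 in limma-voom, 0 at 0.01, 0 to 2 leaving out 1 library) and 1 lower (2 with RLE size factors, no filter, a fit that is not robust, mitochondrial genes removed or a threshold of 0.10, 3 in DESeq2, 0 at 0.01, 0 to 2 leaving out 1 library).

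With the replicate number as a block, 4 genes were higher and 6 lower (40% higher), no P450 member was called (0 higher, 0 lower; Cyp2c11 adjusted p = 0.0734, limma-voom 0.0679, range over alternatives 0.00308 to 0.168), and 0 pathway genes were higher and 0 lower. The deviations of libraries of the same number had r of -0.206, 0.00452 and -0.157 for numbers 1, 2 and 3. Whether the numbers mark pairs was not tested.

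Signs turned for Cyp2c23 (0.19 with library totals alone, 0.0178 without CKD 1, and -0.58 to 0.33 leaving out 1 library, the highest without Sham 3), Cyp4f6 (0.30 with library totals alone, -0.30 to 0.16 leaving out 1 library, the highest without CKD 1), Cyp4v3 (-0.06 without CKD 2, -0.02 without Sham 1, -0.23 without Sham 3, up to 0.55 without Sham 2), Cyp27a1 (0.0052 without Sham 2, down to -1.34 without Sham 1) and Cyp2e1 (0.0107 with library totals alone, and -0.82 without CKD 3 to 0.13 without Sham 3). The causes were not tested. For the named genes, 451 alternatives kept direction and side of the threshold, 19 crossed it upward, 60 downward and 11 turned sign.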

Other observations

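P450 genes outside the naming rule gave further values. An unnamed row, whose description in the table matches the mouse protein CYP2J5, had 2, 0 and 0 counts in CKD 1, 2 and 3, against 344, 48 and 15 counts in Sham 1, 2 and 3, and was called lower (edgeR adjusted p = 0.045). It passed the filter on low counts only through the Sham libraries and so had to differ, and the call was lost in limma-voom and without any library but Sham 1. Tbxas1, the thromboxane synthase of platelets and macrophages, had 12.5, 14.6 and 5.33 CPM in CKD 1, 2 and 3, against 2.53, 0.699 and 2.67 CPM in Sham 1, 2 and 3; the groups did not overlap and it did not pass (log2 fold change 2.45 ± 0.60, edgeR adjusted p = 0.0647). The 6 macrophage markers summed to 189 to 380 CPM in CKD and 31.0 to 103 CPM in Sham, and their part in the Tbxas1 level was not tested. Of these markers 3 were called higher, beside 2.67% of all genes, and these calls were lost without CKD 1, CKD 2 or Sham 2. Without Sham 3 only 1 of all genes was called higher, so the 3 calls did not all stand there either. With a replicate block 4 of all genes were called higher. Cyp51, the sterol demethylase of cholesterol synthesis, had 39.9, 29.8 and 22.6 CPM in CKD 1, 2 and 3 and 25.4, 22.7 and 25.4 CPM in Sham 1, 2 and 3, within the spread.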
